A study of Rattus norvegicus with 10 samples.

Results

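The fatty acid elongases Elovl1, Elovl2, Elovl4, Elovl5, Elovl6 and Elovl7, the desaturases Fads1 and Fads2, and the lipid transporter Mfsd2a were followed in rat thyroid cells after silencing of the forkhead transcription factor FoxE1. These 9 genes were chosen by their measured log2 ratios of siFoxE1 over siScramble and over wt, together with their place in long-chain fatty acid synthesis and uptake, so all siFoxE1 ratios of the members are given as a description and without a test. They are 9 of the 15154 genes that the array's transcripts could be assigned to, and 12 of its 30367 probes. Of the 9 genes, 8 passed the filter on dim probes, with 10 probes.

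PCCl3 is an established line of rat thyroid follicular cells, grown here in calf serum with a hormone mix that included TSH and insulin. siFoxE1 cells had received a pool of siRNAs against FoxE1 at 25 nM. siScramble cells had received a non-targeting pool at the same dose, and wt cells were untreated. RNA was taken 48 h after transfection, and 10 two-colour arrays were hybridized: in each comparison, siFoxE1 vs siScramble and siFoxE1 vs wt, there were 4 arrays of single cultures with siFoxE1 in the red dye (Cy5) and 1 array of the pooled cultures with the dyes swapped. The cultures are numbered 1 to 4 as in the labels, each comparison has n = 4 cultures, and the same siFoxE1 cultures serve in both. All values come from a single cell line, and on arrays fewer cells expressing a gene and less RNA per cell cannot be told apart.

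Polyunsaturated fatty acids of the diet are lengthened and desaturated in the endoplasmic reticulum. Desaturases add double bonds, and each elongase carries out the condensation that opens a round of chain lengthening. Elovl5 and Elovl2 lengthen polyunsaturated chains, and Elovl2 is the enzyme best known from mice for making docosahexaenoic acid and its precursors. Elovl1, Elovl6 and Elovl7 act mainly on saturated and monounsaturated chains, and Elovl4 makes the longest chains, known from retina, skin and testis. Mfsd2a takes up lysophosphatidylcholine that carries docosahexaenoic acid, a role described at the blood-brain barrier of mice.

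The siRNA target was checked on every array. The log2 ratio of Foxe1 over siScramble was -0.77, -0.46, -0.62 and -0.39 in cultures 1 to 4 and -1.03 on the pooled array. Over wt it was -0.52, -0.55, -0.34 and -0.62, and -1.21 on the pooled array. Foxe1 was below 0 on all 10 arrays and fell by the limma fit, with log2 fold changes of -0.80 ± 0.09 over siScramble and -0.86 ± 0.08 over wt (SE, adjusted p = 0.0207 and 0.033). Its pooled ratios were the lowest of each comparison, and the fit gives the pool the same weight as the mean of the 4 cultures. The 4 cultures alone averaged -0.56 ± 0.17 over siScramble and -0.51 ± 0.12 over wt (SD, n = 4). As the pool holds the same cultures, the SE is not that of independent arrays. All 8 thyroid markers on the list (such as Tg and Pax8) were well above background in all 20 channels, and none of the 3 hepatocyte markers in any. Of the 4 leukocyte markers, 3 were above background in no channel and Cd79b in 1, and of the 3 endothelial markers only Cdh5 was above it in all. Col1a1, Col1a2 and Pdgfra of the 5 fibroblast markers were above background in all 20 channels, with log2 fold changes between -0.03 and 0.13 in both comparisons, and of the adipocyte markers Adipoq was in 11 and Cidec in 4. Between 56.8% and 68.2% of spots per channel were well above background.

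The largest positive ratios among the members were those of Elovl2, on the brighter of its 2 probes. In siFoxE1 cells its normalized log2 level was 7.69, 9.98, 9.48 and 8.39 in cultures 1 to 4, as the mean of 2 hybridizations of each culture. In siScramble cells the levels were 7.49, 8.85, 8.31 and 7.60, and in wt cells 7.29, 8.73, 7.19 and 7.39. Every culture had its highest Elovl2 level in siFoxE1 cells, although the ranges of the 3 conditions overlapped. The log2 ratio over siScramble was 0.14, 1.02, 1.34 and 0.91, a mean of 0.85 ± 0.51 (SD, n = 4), and 0.92 on the pooled array. Over wt it was 0.47, 1.26, 2.19 and 0.98, a mean of 1.23 ± 0.72 (SD, n = 4), and 0.74 on the pooled array. All 10 ratios lay above 0, with culture 1 lowest in both comparisons and culture 3 highest. Over all spots of the array, the log2 ratios deposited by the authors also spread most in culture 3 (SD 0.27 over siScramble and 0.39 over wt). They spread least in culture 2 (0.16 and 0.17). Large ratios in culture 3 are thus not particular to the members, and the part of this spread in their ratios was not tested. The fit, which gives the swapped pool the same weight as the mean of the 4 cultures, put Elovl2 1.85-fold higher than in siScramble cells (log2 0.89 ± 0.19, SE) and 1.98-fold higher than in wt cells (log2 0.98 ± 0.28, SE).

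The other Elovl2 probe, of the same transcript, gave smaller ratios. They were -0.10, 0.43, 0.53 and 0.39 over siScramble, with 0.34 on the pooled array, and -0.22, 0.59, 1.08 and 0.48 over wt, with 0.48 on the pooled array. The order of the cultures was kept, and culture 1 lay below 0 in both comparisons. Fitted values were log2 0.33 ± 0.12 over siScramble and 0.48 ± 0.21 over wt (SE). This probe was dim: its spot signal in siFoxE1 cells ran from 77 to 227.5 over a local background of 54 to 61 on the single-culture arrays, against 196 to 1203 for the brighter probe over a background of 49 to 57. An offset of 50 was added to each signal, which draws ratios of dim probes toward 0. In the signals processed by the scanner software no offset was added. There the dimmer probe gave 0.56 and 0.91 in the 2 comparisons, and the brighter probe 1.00 and 1.25. The part of the offset in the difference between the probes was not tested.

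**Figure D1:**
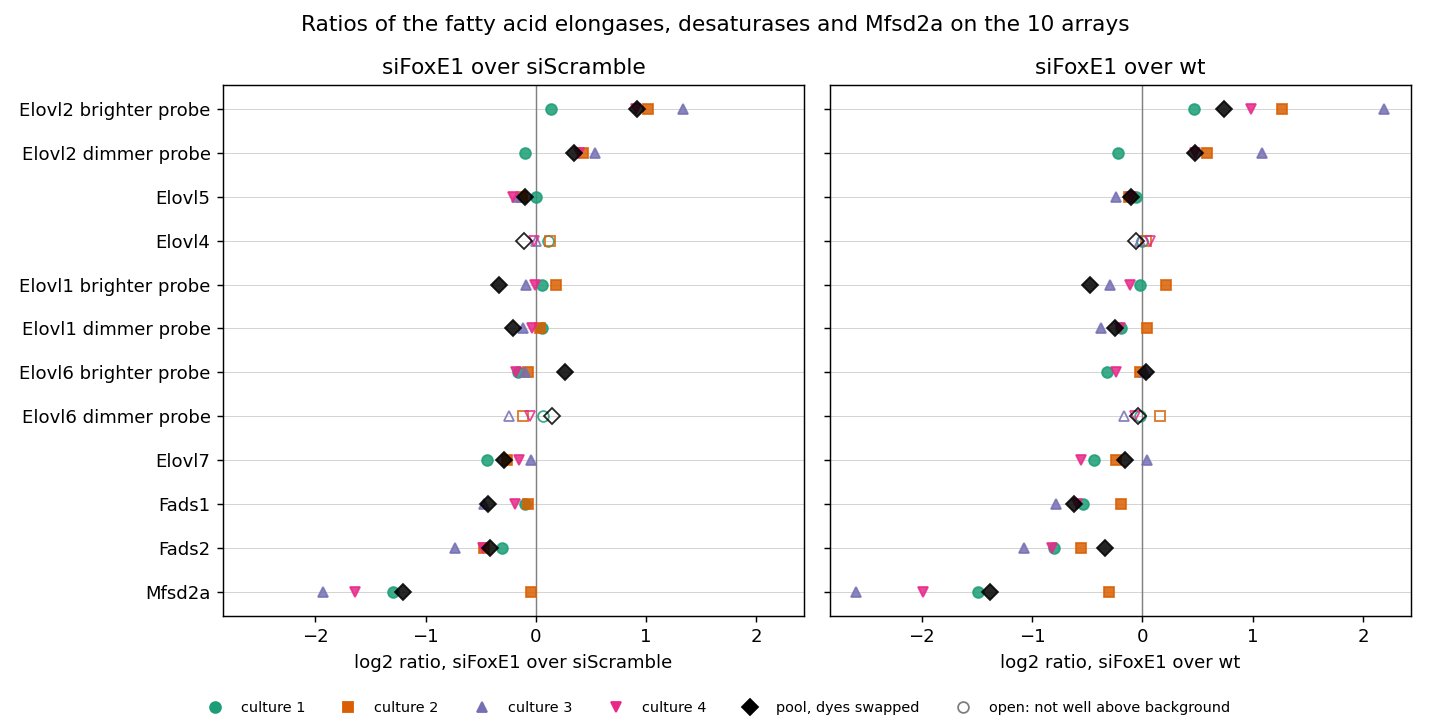
Log2 ratio of siFoxE1 over siScramble (left) and over wt (right) for the 12 probes of the 9 genes; each symbol is one array, coloured by culture, with the dye-swapped pool as a black diamond and open symbols for probes that were not well above background. The brighter Elovl2 probe lies right of 0 on all 10 arrays, Fads1, Fads2 and Mfsd2a lie left of 0 on all 10, and culture 2 of Mfsd2a stands near 0 at -0.04 and -0.30.

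Promoter sequences of 7 of the 9 genes were found in RefSeq's rat assembly GRCr8, and all windows have 250 bases before and 50 after the annotated start. They were searched for AAACA, the core of the FoxE1 site known in the Tg promoter, on both strands (AAACA or TGTTT). Of 33469 promoter windows of 300 bases, 51.9% hold it. Among the members it was found in the windows of Elovl5 (1 match) and Elovl7 (2 matches), but not in those of Elovl1, Elovl4, Fads1 or Fads2, nor in either of the 2 windows of Elovl2. Sequence outside these windows was not searched. In those of Elovl4 and Elovl7 the 50 bases after the annotated start begin with atg, a start codon. Transcription of these genes may thus begin elsewhere, and whether their windows cover a promoter was not tested. The windows of Elovl2 and Fads2 are shown because their genes had the ratios farthest above 0 and, among the desaturases, farthest below 0, and that of Elovl7 because it holds matches, in capitals. No capitals in a sequence means no match in these letters.
Elovl2 (chr17:23750100-23750399, + strand): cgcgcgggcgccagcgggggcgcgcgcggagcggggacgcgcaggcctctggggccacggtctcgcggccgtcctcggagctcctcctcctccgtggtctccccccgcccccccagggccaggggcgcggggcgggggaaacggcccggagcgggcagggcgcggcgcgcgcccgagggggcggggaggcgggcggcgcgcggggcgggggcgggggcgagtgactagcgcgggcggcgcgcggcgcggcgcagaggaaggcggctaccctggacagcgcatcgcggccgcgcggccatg
Fads2 (chr1:216171984-216172283, - strand): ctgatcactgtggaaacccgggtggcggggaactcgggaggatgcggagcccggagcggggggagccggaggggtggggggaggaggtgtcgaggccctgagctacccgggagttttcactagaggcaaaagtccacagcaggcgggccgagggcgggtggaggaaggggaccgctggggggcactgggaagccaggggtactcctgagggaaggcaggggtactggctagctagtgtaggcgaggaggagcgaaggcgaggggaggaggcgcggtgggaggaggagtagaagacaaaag
Elovl7 (chr2:41562612-41562911, + strand): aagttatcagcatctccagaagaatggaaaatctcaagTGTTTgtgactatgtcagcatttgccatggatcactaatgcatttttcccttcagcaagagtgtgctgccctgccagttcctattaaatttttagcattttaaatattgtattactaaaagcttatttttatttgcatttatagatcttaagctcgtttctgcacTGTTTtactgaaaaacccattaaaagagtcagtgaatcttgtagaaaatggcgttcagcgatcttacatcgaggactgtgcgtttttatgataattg

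Elovl5, which acts on shorter polyunsaturated chains than Elovl2, stayed near 0. Its ratios over siScramble were 0.005, -0.12, -0.17 and -0.21, with -0.09 on the pooled array, and those over wt ran from -0.24 to -0.06, with -0.10 on the pooled array. The fitted values were -0.11 ± 0.07 and -0.12 ± 0.07 (SE). Elovl5 was dim, with spot signals of 87.75 to 118 in siFoxE1 cells on the single-culture arrays, and in processed signals its values were -0.32 and -0.24.

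Elovl1, which makes very long saturated chains for sphingolipids, had 2 probes. On the brighter one the 4 cultures averaged 0.04 ± 0.12 over siScramble and -0.05 ± 0.21 over wt (SD, n = 4), while the dye-swapped pools gave -0.33 and -0.47. The dimmer probe averaged -0.01 ± 0.08 and -0.18 ± 0.17 (SD, n = 4), with -0.21 and -0.25 on the pooled arrays. Single cultures and swapped pools thus lay apart on the brighter probe, and the fitted values of -0.15 and -0.26 fall between them.

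Elovl6, which lengthens the products of fatty acid synthase, had 2 probes, of which the dimmer was well above background in only 1 of 20 channels and was not tested. The brighter probe was below 0 in all 4 cultures over siScramble (-0.18 to -0.07) and above 0 on the pooled array (0.27), so its fitted value of 0.07 ± 0.07 (SE) has the sign of the pool alone. Over wt the ratios ran from -0.32 to 0.03, and the fitted value was -0.05 ± 0.09 (SE).

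Elovl7 had ratios of -0.44, -0.26, -0.05 and -0.15 over siScramble and -0.29 on the pooled array. Over wt they were -0.44, -0.24, 0.04 and -0.56, with -0.16 on the pooled array. Culture 3, the highest for Elovl2, was also the one nearest to or above 0 for Elovl7. Fitted values were -0.26 ± 0.09 and -0.23 ± 0.12 (SE). The Elovl4 probe was not well above background in any channel, so nothing can be said of its ratio.

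Fads2 and Fads1 lay below 0 on every array. Fads2 is the desaturase that opens the polyunsaturated pathway, and Fads1 acts after the first round of elongation. Fads2 had normalized log2 levels of 10.13, 10.97, 10.52 and 10.31 in siFoxE1 cells of cultures 1 to 4, against 10.40, 11.47, 11.29 and 10.83 in siScramble and 10.94, 11.54, 11.72 and 11.19 in wt cells. Every culture was lowest in siFoxE1 and highest in wt cells, while the ranges of siFoxE1 and siScramble cells overlapped, as did those of siFoxE1 and wt cells at 10.97 and 10.94. The Fads2 ratio over siScramble was -0.31, -0.47, -0.74 and -0.48 in cultures 1 to 4 and -0.42 on the pooled array. Over wt it was -0.80, -0.56, -1.08 and -0.82, and -0.34 on the pooled array. All of these values are negative, with culture 3 lowest in both comparisons and the pool closest to 0 over wt. In the fit, Fads2 was 1.37-fold lower than in siScramble cells (log2 -0.46 ± 0.09, SE) and 1.49-fold lower than in wt cells (log2 -0.58 ± 0.10, SE). The mean of the 4 cultures over wt was farther from 0, at -0.81 ± 0.21 (SD, n = 4).

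For Fads1 the levels were 10.31, 11.56, 10.69 and 10.60 in siFoxE1 cells, against 10.44, 11.57, 11.24 and 10.81 in siScramble and 10.80, 11.82, 11.57 and 11.24 in wt cells. Again each culture was lowest in siFoxE1 and highest in wt cells, with culture 1 lowest and culture 2 highest in each condition. Its ratios were -0.10, -0.07, -0.47 and -0.19 over siScramble, with -0.43 on the pooled array. Those over wt were -0.53, -0.20, -0.78 and -0.59, with -0.62 on the pooled array. Culture 2 was closest to 0 and culture 3 farthest from it in both. The fitted values were -0.32 ± 0.09 over siScramble and -0.57 ± 0.11 over wt (SE), a 1.25-fold and a 1.49-fold lower level.

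Mfsd2a had the ratios farthest from 0 of all members, and the widest spread among cultures. Its normalized log2 level in siFoxE1 cells was 8.60, 8.74, 8.12 and 9.08 in cultures 1 to 4. In siScramble cells it was 9.79, 8.83, 10.00 and 10.69, and in wt cells 10.09, 8.99, 10.82 and 11.11. The siFoxE1 levels of cultures 1, 2 and 3 lay below every level of the other conditions, and that of culture 4, at 9.08, lay above culture 2 in both. The ratio over siScramble was -1.30, -0.04, -1.93 and -1.64, a mean of -1.23 ± 0.83 (SD, n = 4), and -1.21 on the pooled array. Over wt the ratio was -1.49, -0.30, -2.59 and -1.99, a mean of -1.59 ± 0.97 (SD, n = 4), with -1.38 on the pooled array. Cultures 1, 3 and 4 lay far below 0, while culture 2 was nearly level with its siScramble cells. The arrays of culture 2 also had the narrowest ratios over all spots, and those of culture 3 the widest. Fitted values were 2.32-fold lower than in siScramble cells (log2 -1.22 ± 0.29, SE) and 2.80-fold lower than in wt cells (log2 -1.49 ± 0.37, SE). Without the single-culture array of culture 2 they were -1.41 and -1.70, but the pool, which also holds culture 2, stayed in those fits. The means of cultures 1, 3 and 4 alone, without the pool, were -1.62 and -2.02. Culture 3 over siScramble was hybridized on another slide than cultures 1, 2 and 4, which averaged -0.99 for Mfsd2a and 0.69 for Elovl2 against -1.93 and 1.34 in culture 3, while all single-culture arrays over wt shared 1 slide.

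Culture 2 stood apart from the others also in its siScramble and wt cells. Among siScramble cells Mfsd2a was lowest in culture 2, at 8.83 and between 9.79 and 10.69 in the other 3, and the brighter Elovl2 probe was highest there, at 8.85 and between 7.49 and 8.31 in the others. Among wt cells Mfsd2a was likewise lowest in culture 2, at 8.99 and between 10.09 and 11.11 elsewhere, and Elovl2 highest, at 8.73 and between 7.19 and 7.39 elsewhere. Fads1 and the brighter Elovl6 probe were also highest in culture 2 in all 3 conditions. The part that these differences had in the ratios was not tested.

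Across the 4 siFoxE1 cultures, Mfsd2a spanned 0.97 log2 units and Elovl2 2.28, and the median span of all probes tested was 0.40. The 2 hybridizations of one siFoxE1 culture differed by at most 0.12 for Mfsd2a and 0.23 for Elovl2. Across the wt cultures the spans were 2.12 for Mfsd2a and 1.54 for Elovl2, with a median of 0.37 over all probes, of which 99.5% had a smaller span than Mfsd2a and 98.0% a smaller span than Elovl2. Fads1 and Fads2 spanned 1.25 and 0.85 in siFoxE1 cells and 1.02 and 0.78 in wt cells. At the other end, the dim Elovl5 spanned 0.21 in siFoxE1 cells and 0.17 in wt cells.

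**Figure D2:**
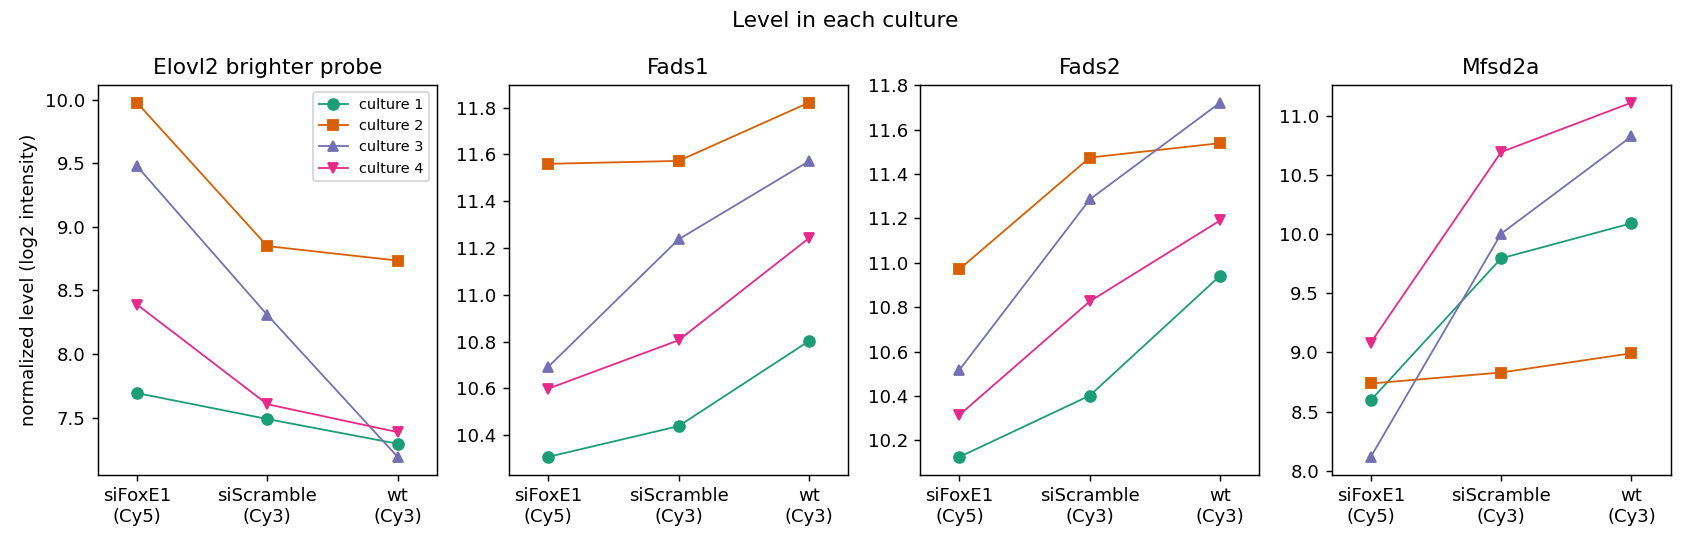
Normalized log2 level (log2 intensity, each panel with its own axis) of Elovl2 (brighter probe), Fads1, Fads2 and Mfsd2a in siFoxE1 (Cy5, mean of 2 hybridizations), siScramble and wt cells (both Cy3); a line joins the values of one culture. Mfsd2a in culture 2 is nearly flat, at 8.74, 8.83 and 8.99, and Elovl2 is highest there in all 3 conditions; the siFoxE1 values were read in another dye than the rest.

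By the limma fit with an adjusted p under 0.05 over all probes, 16 of 9204 genes (0.174%) passed over siScramble, 8 higher and 8 lower, and 5 of 9428 (0.053%) over wt, 2 higher and 3 lower. None of the 8 tested members was among them in either comparison, and 2325 and 3124 probes had an unadjusted p under 0.05. Other fits with the same filter on dim probes passed more genes, and some members with them. When all 10 arrays were fitted with the culture number as a block, 44 and 1021 genes passed, with 0 and 4 members among them. Without a dye term, 524 and 684 genes passed, with 3 and 4 members. On the 4 individual arrays alone, 350 and 148 genes passed, with 2 and 1 members. Leaving out the array of culture 1 or of culture 2, 5 and 26 genes passed over siScramble, with 1 member each time. As the members were chosen on these ratios, none of these fits is a test of them. Of the 8 members 1, Elovl2, lay above 0 on all 5 arrays of each comparison, where 10.3% of all genes did over siScramble and 11.4% over wt. Below 0 on all 5 arrays were 4 of 8 members in each comparison, where 11.2% of all genes were over siScramble and 14.4% over wt. They were Elovl7, Fads1, Fads2 and Mfsd2a over siScramble, and Elovl5, Fads1, Fads2 and Mfsd2a over wt. As the members were chosen on these ratios, nothing is read from the counts. The median fitted value of the members was -0.20 over siScramble and -0.24 over wt, and the median of all genes was 0.00 in both.

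The question of what transfection with the non-targeting siRNA does by itself was addressed by the Cy3 channels of the 8 single-culture arrays, siScramble against wt. These channels are the denominators of the ratios on which the members were chosen, so the members' differences are given as a description, without a test. In all 4 cultures the siScramble cells lay above wt for 1 of 8 members, Elovl2 (both probes), as did 11.9% of all genes. They lay below wt for 4 of 8 members, Elovl5, Fads1, Fads2 and Mfsd2a, as did 13.7% of all genes, and nothing is read from these counts. The dimmer Elovl1 probe was also below 0 in all 4, while its brighter probe was not. The brighter Elovl2 probe differed by 0.19, 0.11, 1.12 and 0.22 (mean level 8.06 ± 0.64 in siScramble and 7.65 ± 0.73 in wt cells, SD, n = 4 each). Mfsd2a differed by -0.30, -0.16, -0.82 and -0.42, with mean levels of 9.83 ± 0.77 in siScramble and 10.25 ± 0.94 in wt cells (SD, n = 4 each). Both genes differed most in culture 3. Its siScramble channel was on slide 2 and its wt channel on slide 1, while both channels of every other culture were on slide 1. In culture 3, slide and transfection therefore cannot be told apart. Fads1 differed by -0.36, -0.25, -0.33 and -0.44, and Fads2 by -0.54, -0.06, -0.44 and -0.36.

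In the limma fit of 4 against 4, 0 of 9495 genes (0%) passed, with 489 of 18052 probes at an unadjusted p under 0.05. The numbers pair the cultures, and with the culture as a block the mean differences were 0.41 ± 0.17 for Elovl2, -0.42 ± 0.11 for Mfsd2a, -0.35 ± 0.06 for Fads1 and -0.35 ± 0.09 for Fads2 (SE), and again 0 genes passed in the limma fit. Without culture 3, the unblocked difference of Elovl2 was 0.18 and that of Mfsd2a -0.29. The other members differed less: Elovl5 by -0.09, Elovl7 by 0.05, the brighter Elovl6 probe by -0.07, and the Elovl1 probes by -0.06 and -0.15.

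**Figure D3:**
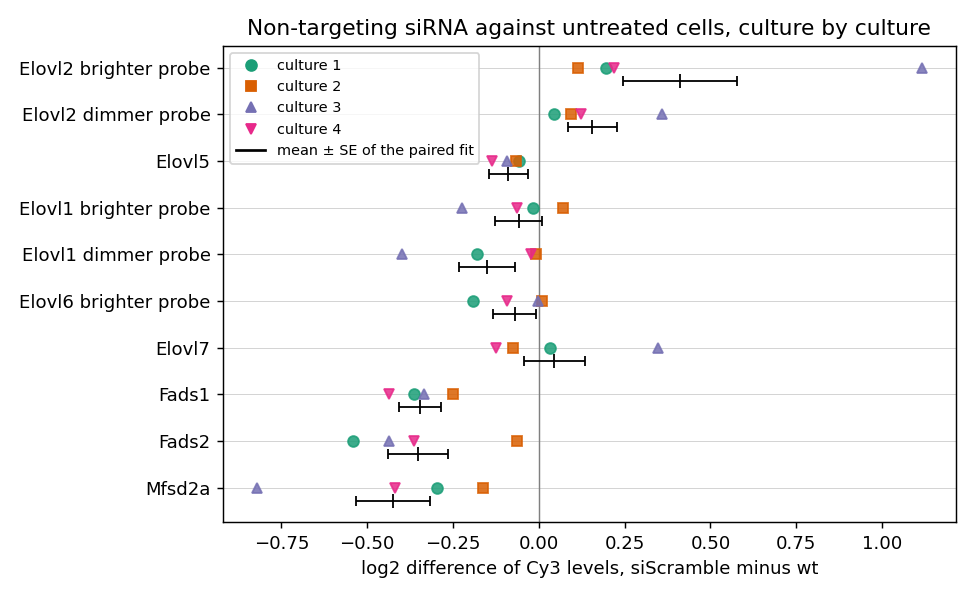
Difference of normalized Cy3 levels, siScramble minus wt (log2), for the 10 member probes above background; each symbol is one culture, and the black bar below them is the mean ± SE of the fit paired by culture. Both Elovl2 probes lie right of 0 and Elovl5, Fads1, Fads2, Mfsd2a and the dimmer Elovl1 probe left of 0 in all 4 cultures, with the means of Elovl2 and Mfsd2a at 0.41 and -0.42.

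Other genes of fatty acid metabolism were taken from 6 lists with 82 genes, of which 77 had a probe. Of these, 51 could be tested over siScramble and 55 over wt, and none rose or fell in either comparison. Their medians were 0.06 and 0.07, beside 0.00 over all genes. With the replicate block over all 10 arrays, 7 of them passed over wt and none over siScramble. In that fit 1021 of all genes passed over wt and 44 over siScramble, so nothing about these lists is read from the 7. Among the 7 were Acly (-0.44, adjusted p = 0.02) and Fasn (-0.29, 0.0457) of fatty acid synthesis, the phospholipid acyltransferase Agpat5 (-0.64, 0.00832), the uptake protein Slc27a4 (-0.35, 0.0431), the peroxisomal importer Abcd3 (0.30, 0.0325) and Hsd17b4 (0.27, 0.0477), given as log2 fold change and limma adjusted p.

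The lists are described by members with the highest or the lowest fitted log2 fold change, none of which passed the main fit. Of the 8 tested partners in the elongation cycle and other desaturases, Tecr, the reductase that closes each round, was highest at 0.16 over siScramble and 0.30 over wt. Fads3, a relative of Fads1 and Fads2, was lowest at -0.24 and -0.25. The list's medians were 0.05 and 0.06. Among genes of fatty acid synthesis and its regulators (12 and 13 tested, medians 0.01 and -0.05), the lipogenic protein Thrsp was highest at 0.40 and 0.54, and Acly, which supplies cytosolic acetyl-CoA, lowest at -0.21 and -0.45.

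In fatty acid activation and uptake (6 and 7 tested, medians 0.05 and -0.02), Slc27a1 was highest at 0.31 and 0.43 and Slc27a4 lowest at -0.13 and -0.34. Both are fatty acid transport proteins with acyl-CoA synthetase activity. In peroxisomal chain shortening, which trims very long chains, 6 of 7 genes lay above 0 over siScramble and 6 of 8 over wt (medians 0.16 and 0.20). Scp2 was highest, at 0.24 and 0.37.

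Among the acyltransferases and phospholipases of phospholipid remodelling (12 and 13 tested, medians 0.08 and 0.09), Agpat5 was lowest in both comparisons, at -0.46 ± 0.09 and -0.66 ± 0.15 (SE). The highest were Agpat1 over siScramble, at 0.19, and Pla2g6 over wt, at 0.25. In ceramide synthesis (6 tested in each, medians -0.04 and -0.11), Cers2, the synthase that uses the very long chains made by Elovl1, was lowest at -0.24 and -0.44, and Sptlc2, a subunit of the enzyme that starts the pathway, highest at 0.08 and 0.16. Of the thyroid markers, Duox2 was highest at 0.98 and 1.10, and Slc5a5, the iodide transporter, was lowest over wt at -0.65 (adjusted p between 0.114 and 0.245).

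**Figure D4:**
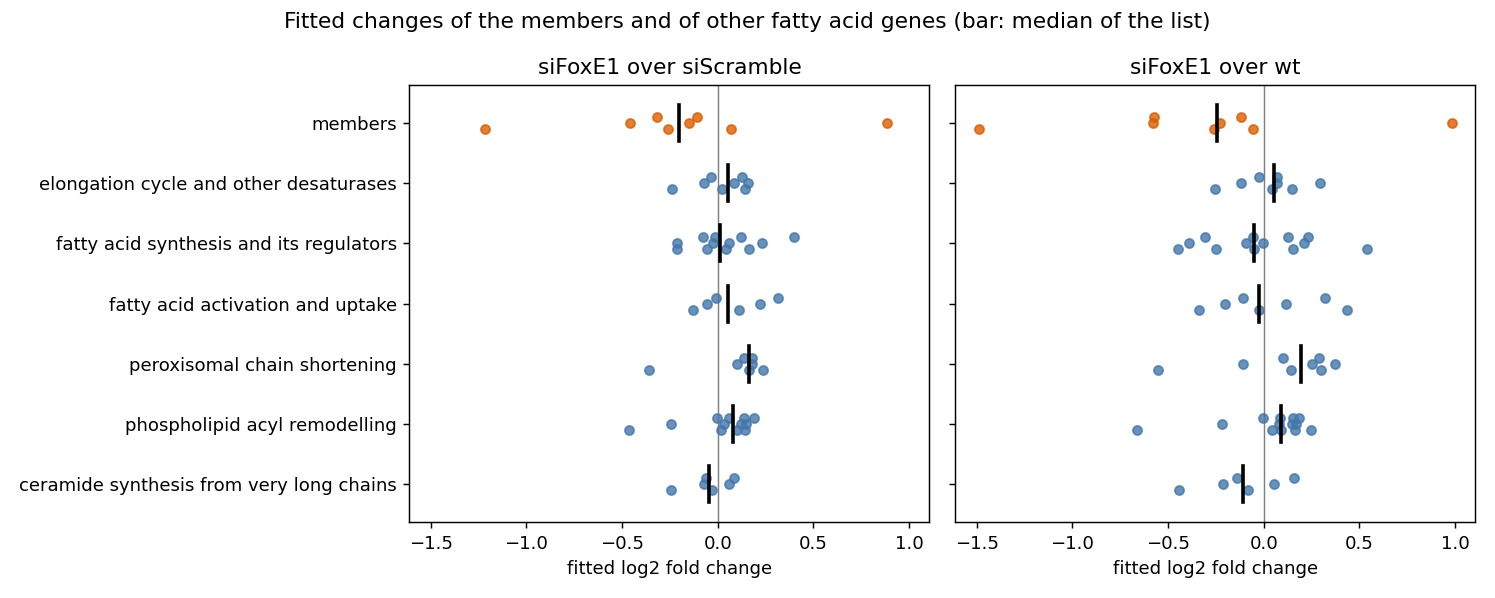
Fitted log2 fold change of siFoxE1 over siScramble (left) and over wt (right) for the 8 tested members (orange, one probe a gene) and for the genes of 6 other lists (blue); each point is a gene and the black bar is the median of its row. Elovl2 is at 0.89 and 0.98 and Mfsd2a at -1.22 and -1.49, and the other lists run from -0.46 to 0.40 over siScramble and from -0.66 to 0.54 over wt; the members were chosen on these ratios, so nothing is read from their distance to the other lists.

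Genes with ratios most like those of Elovl2 and Mfsd2a were sought among 9072 genes tested in both comparisons, by the root mean square difference of the log2 ratios over the 10 arrays. Closest to Elovl2 (brighter probe) were Fgf18, a growth factor, at 0.32, and Duox2, a thyroid oxidase that supplies the peroxide used to iodinate thyroglobulin, at 0.33. They were followed by Dynlrb2, Crip1 and Psapl1 at 0.39, 0.39 and 0.40. All 5 were above 0 on all 10 arrays, and all but Psapl1, whose highest ratio was 1.33, exceeded 2 in culture 3 over wt.

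Closest to Mfsd2a were Gmppb, an enzyme that makes GDP-mannose, at 0.41, and Etv5, an ETS transcription factor, at 0.46. Sel1l and Herpud1, both of the machinery that removes misfolded proteins from the endoplasmic reticulum, followed at 0.48 and 0.53, and Ggct, an enzyme of glutathione turnover, at 0.56. Each of the 5 reached its lowest ratio in culture 3 over wt, between -2.81 and -2.32, on the array with the widest ratios over all spots. In culture 2 over siScramble the ratios of Gmppb, Etv5, Sel1l and Ggct were -0.14, -0.24, 0.07 and 0.00, close to the -0.04 of Mfsd2a, while Herpud1 was at -0.38. In culture 1 over siScramble Mfsd2a was at -1.30 and the 5 genes between -0.93 and -0.06, all closer to 0.

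**Figure D5:**
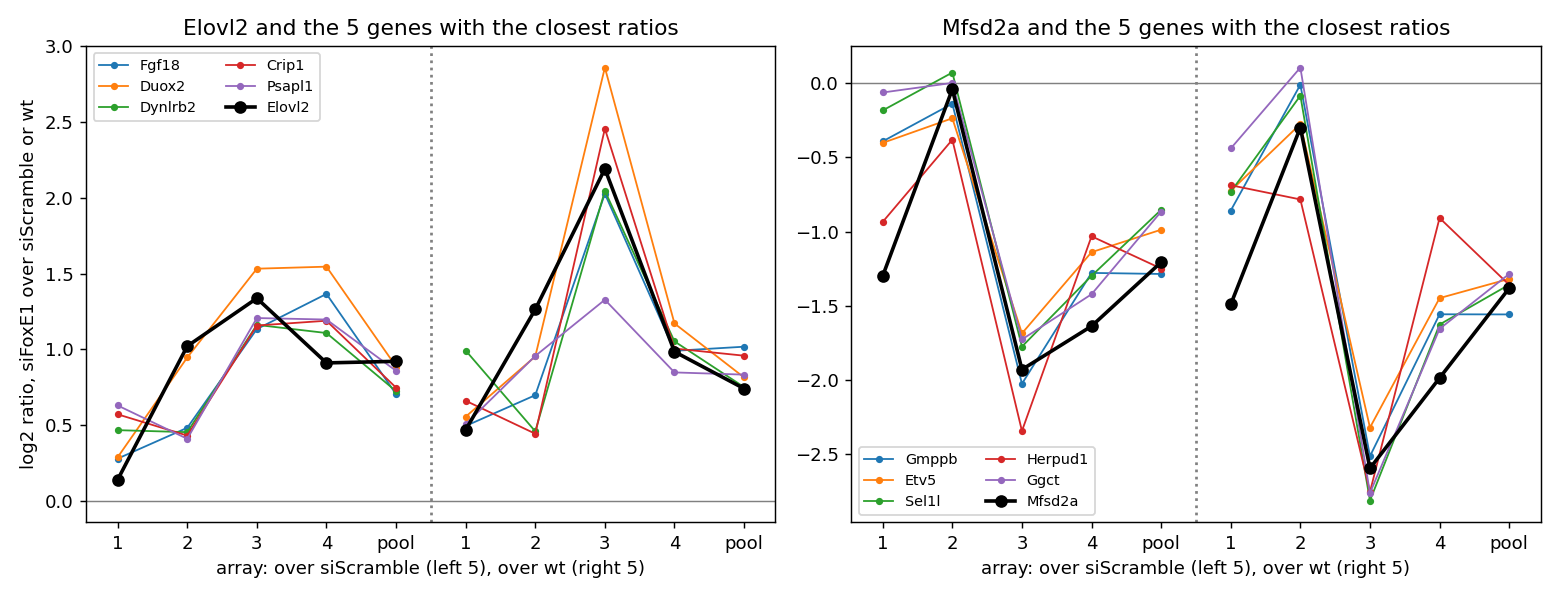
Log2 ratio on each of the 10 arrays for Elovl2 (left, black) and Mfsd2a (right, black) and the 5 genes with the smallest root mean square difference to each; in each panel the left 5 arrays are siFoxE1 over siScramble and the right 5 siFoxE1 over wt, numbered by culture. Culture 3 over wt is the extreme of most lines, with Elovl2 at 2.19 and Mfsd2a at -2.59. That array also had the widest ratios over all spots.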

How the data were processed

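Each array compared siFoxE1 with siScramble or wt cells, grouped as in the labels. The authors quantified the scans with Agilent Feature Extraction; the deposited intensity columns hold median spot and background brightness and processed signals per dye, beside quality marks. The deposited log10 ratio is red over green and was not used for values. The authors also deposited normalized log2 ratios (loess and quantiles; limma 3.2.3 in the submitters' notes), used as an alternative: their SD was 0.995 to 1.01 times that of the log2 ratios computed here, medians were near 0, and the sign of the pooled columns had already been flipped. Dyes were taken from the labels; the colour key of the study's design drawing shows them the other way round, and Foxe1 is lower in the channel labelled siFoxE1. The lowest correlation between arrays was -0.157.

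Median signals were corrected by normexp (offset 50), then normalized within arrays by loess and between arrays by quantiles, without control and outlier spots (1.25 to 1.60% per array), and averaged per probe. By transcript accession, 17998 of 30367 probes matched RefSeq's GRCr8 genes; 12369 stayed unnamed. Probe positions are not given, as the array was designed on another build. Tests were run on probes that exceeded background well on at least 3 of 5 arrays in either channel; a gene is its brightest tested probe. limma 3.58.1 (R 4.3.3, statmod 1.5.0) fitted each comparison's 5 arrays with a dye term, with Benjamini-Hochberg adjustment over all probes tested and a threshold of 0.05. The pool holds the same 4 cultures. For siScramble vs wt, Cy3 levels after Aquantile normalization were fitted 4 against 4; between dyes such levels are open to dye bias. The alternatives were other fits, scalings and filters, and leaving out each culture's own array with the pool kept; means without the pool were added after seeing the data. Saturated spots were not seen, and precision is set by how few arrays there are.

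Replicates are 4 silencing experiments. Their numbers pair the samples: deviations from group means of equal number correlated at 0.413 to 0.770 for ratios and 0.115 to 0.793 for Cy3 levels. Culture 4 ratios correlated more with another number (0.510) than with their own (0.413), as did culture 3 Cy3 levels (0.148 against 0.115). Slide 2 holds culture 3 and the pool of siFoxE1 vs siScramble, slide 1 the other arrays. The members and lists were chosen with earlier results of these data known. Named genes are all member probes, Foxe1, in each list those that passed or else the highest and lowest, and the 5 genes closest to Elovl2 and Mfsd2a; some values of list genes are not reported here. The fits were also run on simulated data with independent arrays of equal noise. The pooled arrays hold the same 4 cultures, so these runs do not show the precision of the siFoxE1 fits. Motif searches and figures used Python 3.11.15 and matplotlib 3.10.9.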

Additional observations from a re-analysis of the deposited data

How the results depend on the processing

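Elovl2 (brighter probe) and Mfsd2a kept their direction under every setting run. Elovl2 lay above 0 and Mfsd2a below 0 on every array, and both were chosen on these ratios. Settings that reuse these arrays could thus hardly reverse the sign, and nothing is read from its being kept. The settings show how far the values move. Leaving out one culture's own array, with the pool that holds the same culture kept, moved Elovl2 between 0.80 and 1.00 over siScramble and between 0.82 and 1.11 over wt, and Mfsd2a between -1.41 and -1.10 and between -1.70 and -1.32. With the pool left out too, an alternative chosen after seeing the data, means of the other 3 cultures ran from 0.69 to 1.09 and from 0.90 to 1.48 for Elovl2, and from -1.62 to -0.99 and from -2.02 to -1.26 for Mfsd2a, the lowest Mfsd2a values being those without culture 2. Elovl2 reached 1.13 over siScramble with the slide as a covariate. Slide 2 holds only culture 3 and the pool, so that value rests on these arrays and not on cultures 1, 2 and 4. Fads1 and Fads2 stayed below 0 throughout, but they were also below 0 on every array, so the same limit holds for them. Small values reversed: the brighter Elovl6 probe over siScramble was -0.051 without a dye term and -0.13 on the 4 individual arrays alone, the brighter Elovl1 probe was 0.037 on those arrays, and Elovl7, siScramble vs wt, was -0.056 without culture 3 (0.10 without culture 4) and -0.032 in the indirect comparison.

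Counts of genes depended on the fit. Over siScramble and over wt, 16 and 5 genes passed, against 524 and 684 without a dye term, 350 and 148 on the 4 individual arrays alone, 65 and 1137 with all 10 arrays in one fit, and 44 and 1021 with the replicate block added to that. Processed signals gave 0 and 0, no filter on dim probes 8 and 3, the slide as a covariate 56 (siScramble only), and the authors' normalized ratios 3 over wt. Leaving out one culture gave 5 to 26 and 0 to 53. For siScramble vs wt 0 genes passed, and 0 to 20 with one culture left out, the 20 without culture 2. The cause was not tested. The planned fit of mean spot signals was not run, as the columns read hold medians. Low signal over background limits Elovl4, Elovl5, Elovl6 and the dimmer Elovl2 probe.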
